A study of Mus musculus with 96 samples.

Results

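The genes described here code for 34 soluble proteins of the lysosome: acid hydrolases and the small proteins that help them. They were taken from the files by gene symbol, and all 34 were found among the 40202 genes in the count files. The study measured RNA in single mouse cells of the C10 line, a lung line labelled as alveolar type II epithelial cells, by SMART-seq v4 full-length cDNA libraries made after nanoSPLITS, a method that divides a single lysed cell for RNA and protein work. The control cells were untreated, with treatment given as none. The treated cells received RO-3306, an inhibitor of the mitotic kinase CDK1, at a labelled dose of 10 nM for 36 h; the unit of the dose is the labels' own and could not be checked, and no vehicle is named for either group. Both groups grew in RPMI medium with serum, came from one line, and were sorted as single cells with a CellenONE dispenser. The titles place the cells in lettered sets A to D in each group, and the meaning of the letters is not given.

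Acid hydrolases are made in the endoplasmic reticulum and tagged with mannose 6-phosphate in the Golgi, which sends most of them to the lysosome. There they cut glycolipids, glycoproteins, glycosaminoglycans, lipids and peptides at low pH, and loss of a single enzyme commonly causes a lysosomal storage disease. Transcription factors of the TFEB and TFE3 family bind E-box-like CLEAR elements in the promoters of many of these genes.

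Of 48 libraries in each group, 29 control cells and 37 RO-3306 cells held at least 50000 counts and 1000 genes. In the order A to D these were 10, 8, 6 and 5 control cells and 10, 10, 11 and 6 RO-3306 cells. Total counts ranged from 59979 to 6457215 in the control cells, with a median of 1753427, and had a median of 2234309 in the RO-3306 cells. Because the labels name no separate cultures, each treatment counts as 1 sample: no p-value is given, and intervals are 95% intervals that cover counting error only. A group level is the sum of a gene's counts over the cells, in CPM (counts per 1000000 counts of the group), and a ratio is the log2 difference between the treatments after 1 CPM is added to each level, which understates the change of low genes. A gene was tested where its mean over both groups was at least 5 CPM, and was called where its ratio was at least 2-fold with the same sign in all 4 lettered sets. Each RO-3306 set was compared with the control set of the same letter, a pairing for which the labels give no basis. The sets of a group share their treatment and are not replicates. The same sign in all 4 sets was itself required for a call. Set levels of called members that lie apart are therefore a description.

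The cell type label was compared with marker genes first. Of the 10 alveolar type II markers, Sftpa1, Sftpc, Sftpd, Slc34a2 and Napsa had no count in any cell, and the whole list held 23.5 CPM in the untreated group and 27.7 CPM in the treated one. Epithelial markers summed to 1.78 and 0.978 CPM, and 9 mesenchymal markers to 5656 and 2540 CPM. Macrophages are rich in lysosomal enzymes, and 7 of 16 macrophage markers (C1qa, C1qb, C1qc, Marco, Tyrobp, Laptm5 and Cx3cr1) had no count in any cell. That list summed to 58.6 CPM in control cells (0 to 314.8 per cell) and 64.7 CPM in RO-3306 cells (0 to 435.6 per cell), most of it from Cd14 and Lyz2. The median cell stood at 6.13 CPM (control) and 41.8 CPM (RO-3306) for that list. Of its 2 tested genes, neither called, Cd14 was higher in all 4 sets, from 26.4 to 45.3 CPM, and Lyz2 went from 29.5 to 15.8 CPM. The part of these markers in the results was not tested. Endothelial markers summed to under 1 CPM in both groups, at 0.622 and 0.149 CPM.

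As a group, the lysosomal hydrolases and cofactors stood higher in the RO-3306 cells, with the largest log2 ratios in Man2b1, Arsa, Hexa and Tpp1. Of these, Man2b1 and Arsa were low genes, at 4.53 and 9.39 CPM in control and 39.9 and 52.7 CPM in RO-3306 cells. Summed over the 34 genes, the level was 1361 CPM (1352 to 1370) in control and 2446 CPM (2436 to 2456) in RO-3306 cells, a ratio of 1.80 (1.78 to 1.81). Of the 34 genes 28 were tested and 6 fell below 5 CPM. Among the 28, 21 had a log2 ratio above 0 and 7 below, with a median of 0.86, while the median of all 9374 tested genes was -0.22. Called higher were 11 members, 39.3% of those tested, where 7.23% of all tested genes were called higher. Called lower were 0 members, where 6.43% of all tested genes were. The list was chosen with earlier results of these data known, so these shares are a description and not a test. With TMM scaling the shares of all tested genes were 9.40% higher and 4.81% lower, and the same 11 members were called. Gaa, Gusb and Plbd2, which are among the 7 members below 0, were above 0 under that scaling, at 0.06, 0.20 and 0.07. The median of the members was above 0 in each lettered set, at 1.39 in A, 0.55 in B, 2.79 in C and 0.57 in D. The median of all tested genes was -0.08 in A, -0.26 in B, 0.41 in C and 0.24 in D, so it too was above 0 in C and D. The tested members had a median mRNA length of 2672 nt, and the 2356 tested genes within their length quartiles had a median log2 ratio of -0.25.

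**Figure D1:**
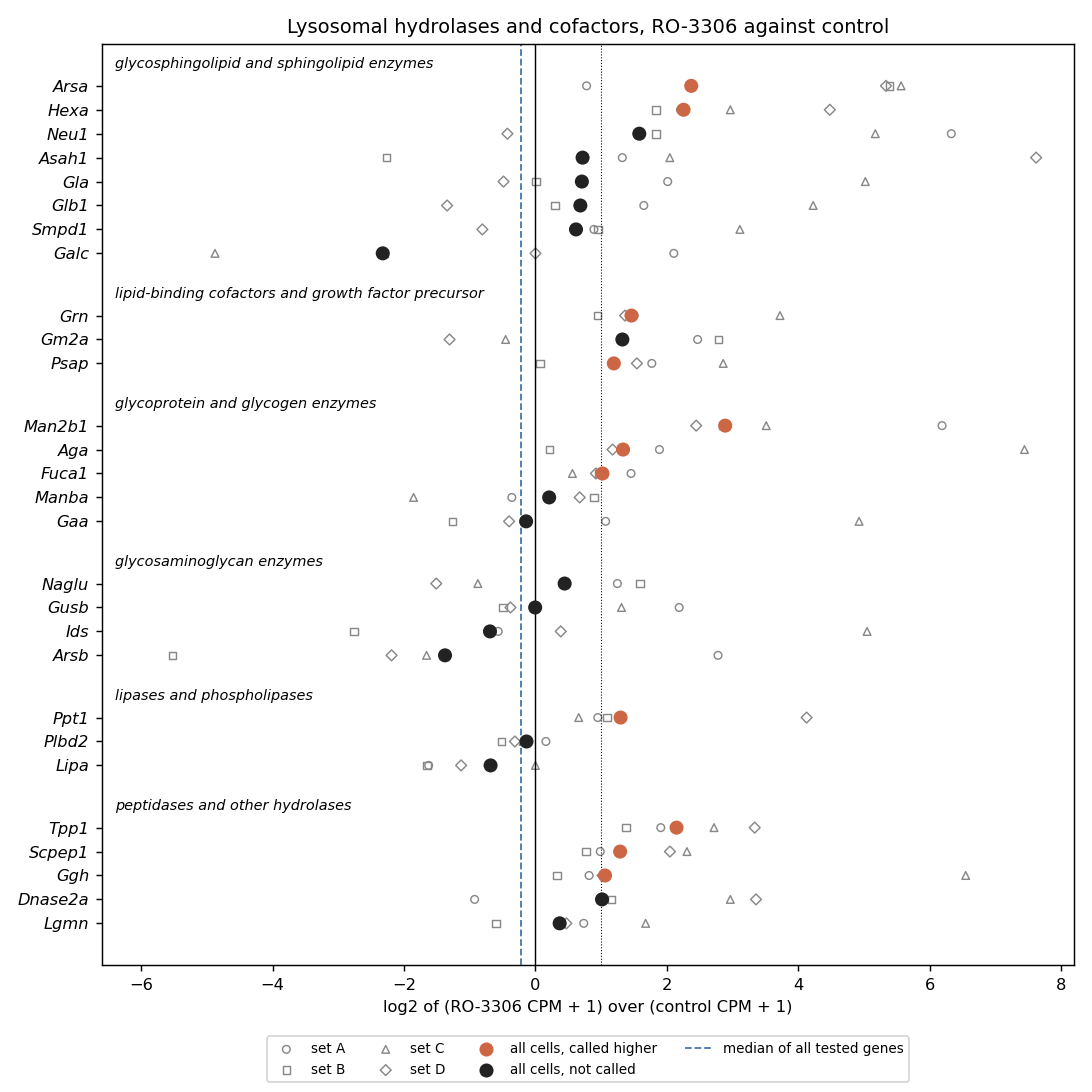
Log2 ratio between RO-3306 and control (x axis, levels in CPM, pseudocount of 1 CPM) for the 28 tested members, grouped by role (y axis). Filled circles are all cells together and open symbols the 4 lettered sets; the dashed line is the median of all tested genes, and the 11 members called higher lie to the right of the dotted line at 2-fold.

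Single cells showed the same order with overlap. The summed level of the 34 genes ranged from 28.1 to 3282 CPM in control cells, with a median of 1142, and from 305.1 to 3779 CPM in RO-3306 cells, with a median of 2270. The control median was exceeded in 32 of 37 RO-3306 cells, and the RO-3306 median in 3 of 29 control cells. No more than 5 RO-3306 cells lay above the highest control cell, so the groups overlapped over most of their range. The lowest control cell, C3 with 604699 counts, had counts for 1 member, Gusb. The lowest RO-3306 cell, B3, had 56.0% of its counts from mitochondrial genes, and without cells above 20% the median log2 ratio of the members was 0.87.

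**Figure D2:**
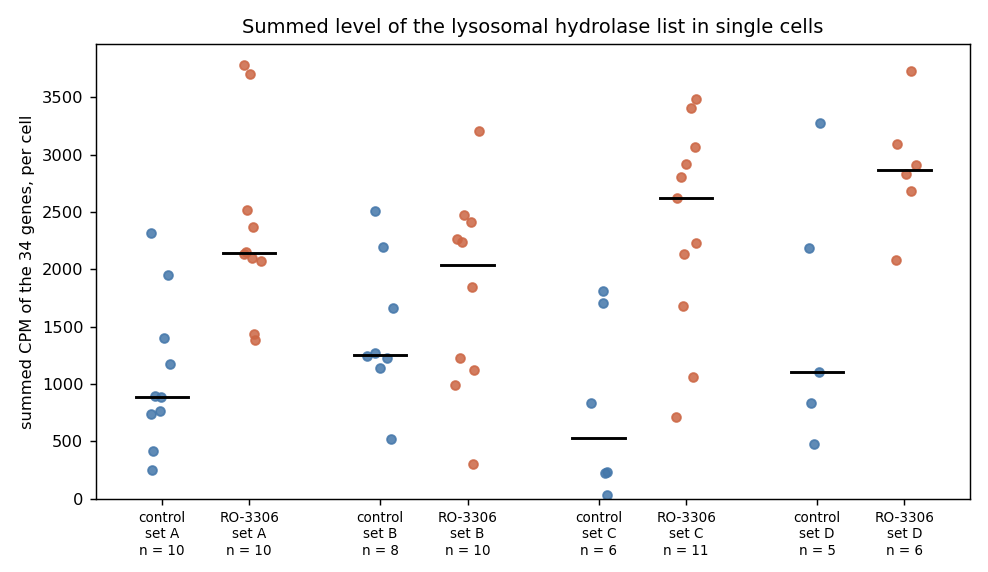
Summed CPM of the 34 genes in each cell (y axis), by treatment and lettered set (x axis, with the number of cells); lines are medians. In every set the RO-3306 median is above the control median, and cells of both treatments overlap.

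The share of cells with any count was compared after each cell was thinned to 639000 reads, which left 25 control and 34 RO-3306 cells. At that depth a control cell had counts for a median of 10 of the 34 members (4 to 30), and an RO-3306 cell for 20 (5 to 30). All genes moved in that direction too: the median number of genes detected was 4576 in control and 5958 in RO-3306 cells. Each of the 28 tested members had a count in a larger share of RO-3306 cells, where 72.0% of all tested genes did. The median difference was 28.6 percentage points for the members, 8.94 for all tested genes and 10.2 for the genes in the members' range of CPM. The part that gene detection per cell plays in the member counts was not tested. Among cells with a count, the median level was higher in RO-3306 cells for 14 tested members and lower for 14. All 11 called members were among the 14 that were higher, with a median log2 difference of 0.78, and the lowest was Arsa at 0.04. A call already requires a higher level over these same cells, so this is a description. Over the 28 the median difference was -0.09; over all tested genes with counts in both groups 31.9% were higher, with a median of -0.46.

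**Figure D3:**
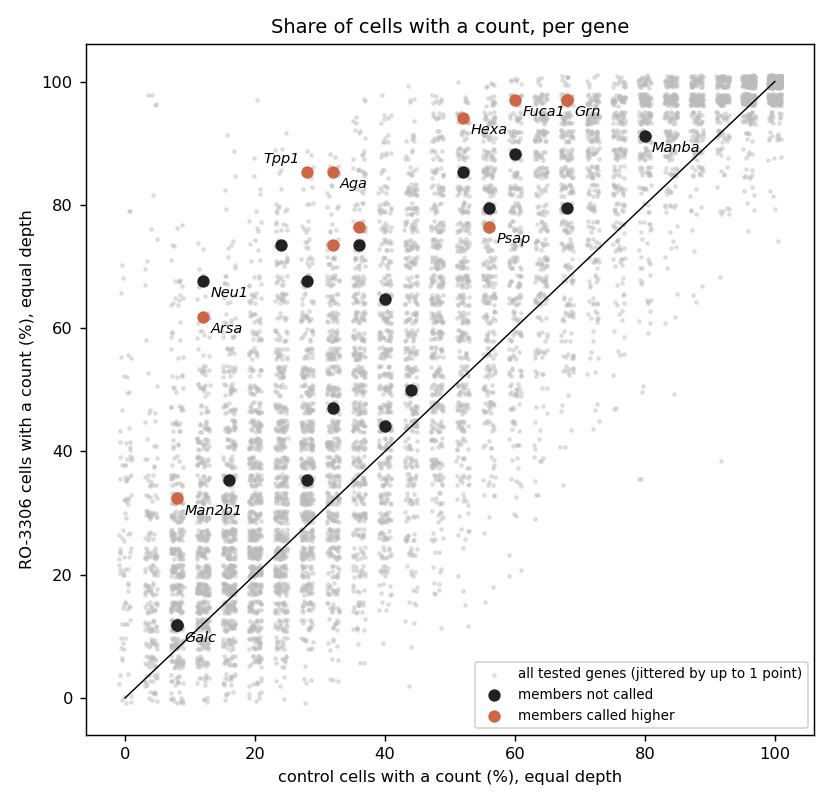
Share of control cells (x axis) and RO-3306 cells (y axis) with a count at equal depth, in percent; grey points are all tested genes and large points the 28 tested members. All 28 members lie above the diagonal, among them Galc at 8% and 11.8%, Manba at 80% and 91.2% and Grn at 68.0% and 97.1%.

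Enzymes of sphingolipid breakdown held 2 called genes, Hexa and Arsa, among 8 tested. The 8 genes had a summed level of 194 CPM (control) and 494 CPM (RO-3306), a ratio of 2.54 (2.49 to 2.59). Hexa (chromosome 9, 59446574 to 59472392, GRCm39) codes for the alpha subunit of beta-hexosaminidase, the enzyme of GM2 ganglioside breakdown that is lost in Tay-Sachs disease. Its counts were present in 13 of 29 control and 34 of 37 RO-3306 cells. The lowest, median and highest cells were at 0, 0 and 297 CPM in control and at 0, 122 and 750 CPM in RO-3306 cells. Set by set, A to D, its control level was 40.8, 47.5, 20.1 and 8.35 CPM and its RO-3306 level 192, 172, 164 and 207 CPM. The sets did not overlap between treatments. The group levels of 37.2 and 181 CPM gave a log2 ratio of 2.25, or 4.87-fold (4.66 to 5.08), and no single cell ended the call.

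Arsa (chromosome 15, 89356679 to 89361627) codes for arylsulfatase A, which removes sulfate from sulfatides. It had counts in 3 of 29 control and 23 of 37 RO-3306 cells, with control cells at 0 (lowest and median) to 150.5 CPM and RO-3306 cells at 0, 13.6 (median) and 567 CPM. Set levels, A to D, were 23.98, 1.01, 0 and 0 CPM in control and 41.8, 82.9, 46.3 and 39.3 CPM in RO-3306 cells, so the lowest RO-3306 set was above the highest control set. The log2 ratio was 2.37, from 9.39 to 52.7 CPM. Without control cell A11 it was 3.13, and without RO-3306 cell A3 the call ended because set A turned to -0.73. Without set B it was 1.48 and without set A 5.11. Part of the gene's span, 23.7%, also belongs to C230037L18Rik, and strand was not used in counting.

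The other 6 sphingolipid enzymes were not called. Neu1, a sialidase, had a log2 ratio of 1.58, from 22.6 to 69.5 CPM, with sets A to C above 0 and set D at -0.43, and it was 2.52 without control cell D9. Counts for Neu1 were present in 5 of 29 control and 27 of 37 RO-3306 cells. Asah1 (acid ceramidase), Gla (alpha-galactosidase A), Glb1 (beta-galactosidase) and Smpd1 (acid sphingomyelinase) had log2 ratios of 0.72, 0.71, 0.68 and 0.62, each with at least 1 set below 0, and that of Glb1 was 1.43 without control D9. The span of Asah1 shares 14.8% with the neighbouring gene Frg1. Galc, which cleaves galactosylceramide, had the lowest ratio of the list at -2.32, from 9.43 to 1.08 CPM. Control cell C7 held 83.5% of the Galc control counts, and the log2 ratio was -0.32 without it.

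Both called genes among the cofactors and the growth factor precursor, Grn and Psap, were higher, and the third gene, Gm2a, was not called. Together they had a summed level of 171 CPM (control) and 464 CPM (RO-3306). Grn (chromosome 11, 102321333 to 102327635) codes for progranulin, a secreted growth factor precursor that is also cut into granulins in lysosomes. Cells with counts numbered 19 of 29 and 36 of 37. Control cells were at 0, 68.6 and 447 CPM (lowest, median, highest) and RO-3306 cells at 0, 305 and 1115 CPM. In sets A to D Grn stood at 130, 152, 22.2 and 214 CPM in control and at 369, 293, 305 and 552 CPM in RO-3306 cells. The lowest RO-3306 set was above the highest control set. The group levels were 135 and 373 CPM, a log2 ratio of 1.46 or 2.76-fold (2.70 to 2.83), which no single cell ended. Per kb of mRNA, Grn was the most abundant member in RO-3306 cells at 159 CPM per kb, against 57.6 in control.

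Psap (chromosome 10, 60113436 to 60138379) codes for prosaposin, the precursor of the saposins that present lipids to several sphingolipid hydrolases. It had counts in 19 of 29 and 33 of 37 cells, at 0, 0.564 and 64.6 CPM in control cells and at 0, 12.5 and 163 CPM in RO-3306 cells. Set levels, A to D, were 3.01, 26.7, 6.49 and 5.32 CPM in control and 12.7, 28.1, 53.2 and 17.4 CPM in RO-3306 cells. The sets overlapped, and in set B the treatments were nearly level. The log2 ratio was 1.19, and the call rested on few cells: the ratio was 0.77 without RO-3306 cell C5, 0.86 without set A and 0.50 without set C, and leaving out RO-3306 B4, control B8 or control B10 turned set B below 0. Psap counts were fractional, from reads shared with other places, in 42.9% of the libraries that had any. The median of all tested genes was 26.2%, and the tested members Manba (54.8%) and Lipa (43.4%) had larger shares. This is a share of libraries and not of reads, so the level of Psap is uncertain by an unknown amount.

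Gm2a, the GM2 activator that lifts the ganglioside to beta-hexosaminidase, had a log2 ratio of 1.32, from 23.6 to 60.4 CPM. Its sets split, with 2.47 in A and 2.78 in B against -0.45 in C and -1.31 in D. Counts for Gm2a were present in 13 of 29 control and 26 of 37 RO-3306 cells.

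Among the enzymes of glycoprotein and glycogen breakdown, Man2b1, Aga and Fuca1 were called higher, 3 of 5 tested. The 6 listed genes had a summed level of 244 CPM (control) and 486 CPM (RO-3306). Fuca1 (chromosome 4, 135648037 to 135667611) codes for alpha-L-fucosidase, which removes fucose from glycans. Control cells were at 0, 10.1 and 465 CPM and RO-3306 cells at 0, 206.5 and 389 CPM, with counts in 17 of 29 and 35 of 37 cells. Its set levels, A to D, were 95.5, 92.1, 140.3 and 83.6 CPM in control and 263, 181, 208 and 159 CPM in RO-3306 cells. Each RO-3306 set was above each control set, although the highest cell was a control cell. The log2 ratio of 1.02 lay just past the 2-fold rule: leaving out any of 21 single cells took it below 1, to 0.93 at the lowest, and so did leaving out set A.

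Aga (chromosome 8, 53964718 to 53976457) codes for aspartylglucosaminidase, which splits the bond between asparagine and the glycan. Counts were present in 10 of 29 control cells (0, 0 and 233 CPM) and 31 of 37 RO-3306 cells (0, 157 and 633 CPM). Control levels in sets A to D were 45.2, 102, 0 and 104 CPM, and RO-3306 levels 169.8, 118, 173 and 237 CPM. The lowest RO-3306 set was above the highest control set, by little in set B. From 68.5 to 174 CPM the log2 ratio was 1.33. Leaving out control B6 or RO-3306 B12 turned set B below 0, to -0.04 and -0.15, and subtracting the median ratio of genes of like length ended the call. Per kb of mRNA, Aga stood at 58.0 CPM per kb in control and 147 in RO-3306 cells.

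Man2b1 (chromosome 8, 85809387 to 85825368), the lysosomal alpha-mannosidase, had the largest log2 ratio of the list at 2.89, from 4.53 to 39.9 CPM. It had counts in 2 of 29 control and 15 of 37 RO-3306 cells, so the median cell was at 0 in both groups and the highest at 45.5 and 474 CPM. In sets A, C and D no control cell had a count, and the RO-3306 levels there were 71.8, 10.4 and 4.45 CPM. In set B the levels were 11.6 and 89.5 CPM. Control cell B4 held 98.3% of the control counts, and without it the log2 ratio was 5.24. It was 4.04 with cells weighted equally, 2.02 without set A and 4.64 without set B. Manba (beta-mannosidase) and Gaa (acid alpha-glucosidase, the glycogen enzyme) had log2 ratios of 0.21 and -0.14 with sets of both signs. Control cell B5 held 47.2% of the Gaa control counts, and the Gaa ratio was 0.64 without it. The Manba ratio was -0.44 without RO-3306 cell B5. Man2b2, another alpha-mannosidase, was below 5 CPM at 1.93 and 2.20 CPM.

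**Figure D4:**
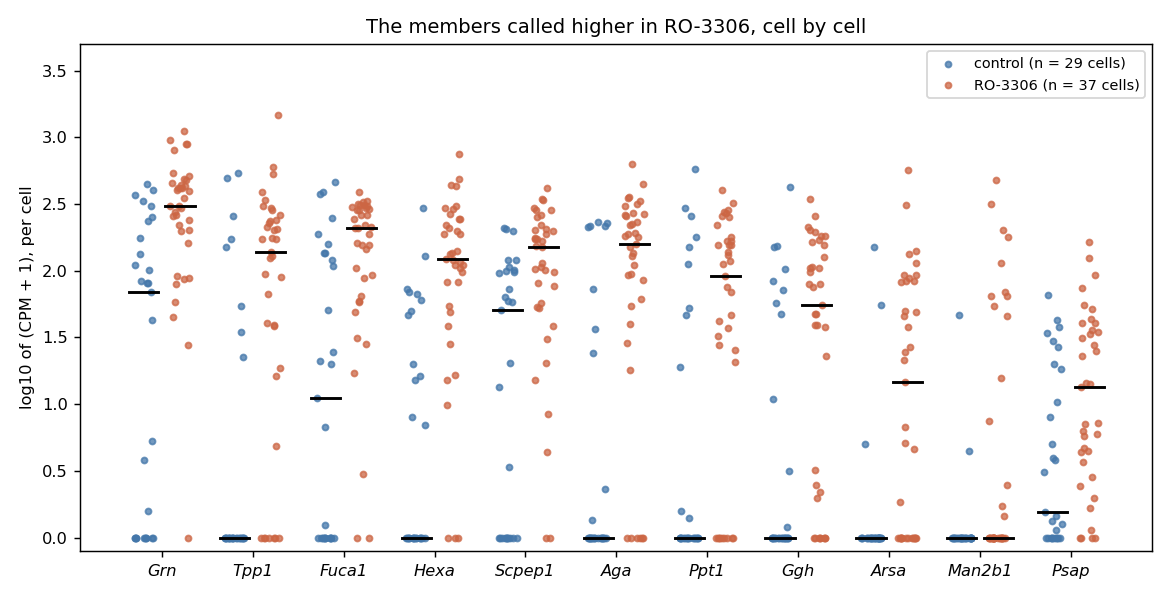
Level of the 11 called members in each cell, as log10 of (CPM + 1) on the y axis, for 29 control and 37 RO-3306 cells; lines are medians. The control median is at 0 for 7 of the 11 genes, and cells of both groups overlap for every gene.

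None of the 4 tested enzymes of glycosaminoglycan breakdown was called. The 7 listed genes had a summed level of 184 CPM (control) and 137 CPM (RO-3306), a ratio of 0.748 (0.729 to 0.767). Naglu and Gusb (beta-glucuronidase) had log2 ratios of 0.44 and -0.00, each with sets of both signs. Ids (iduronate sulfatase) stood at -0.69, from 67.6 to 41.5 CPM, and its sets split. Sets A and B were at -0.57 and -2.76, and sets C and D at 5.05 and 0.38. Without control cell A9 the Ids ratio was -0.22. Arsb (arylsulfatase B) stood at -1.38, from 39.6 to 14.7 CPM, with sets B, C and D below 0 and set A at 2.78, where the control level was 0.0101 CPM. RO-3306 cell C9 held 59.3% of the Arsb counts of its group, and without it the log2 ratio was -2.50. Without set A, Arsb met the rule for a lower gene, as did 9.80% of all tested genes. Galns, Idua and Sgsh were below 5 CPM: Idua had no count in control cells and counts in 4 RO-3306 cells, and Sgsh had a count in 1 control cell and no RO-3306 cell.

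The lipases split. Ppt1 (chromosome 4, 122729879 to 122752968), the palmitoyl-protein thioesterase lost in an infantile neuronal ceroid lipofuscinosis, was called higher. It had counts in 11 of 29 control cells (0, 0 and 577 CPM) and 28 of 37 RO-3306 cells (0, 90.9 and 404 CPM). Sets A to D were at 45.2, 57.9, 37.98 and 10.1 CPM in control and at 88.1, 124, 60.5 and 193 CPM in RO-3306 cells. Every RO-3306 set was above every control set. The log2 ratio was 1.29, or 2.48-fold (2.39 to 2.59), and no single cell ended it. It was not called with cells weighted equally (0.96) or without set D (0.80).

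Lipa (chromosome 19, 34469716 to 34504874), the acid lipase that frees cholesterol from its esters, was the member with the most counts in control cells and went the other way. Control cells were at 0, 71.9 and 777 CPM and RO-3306 cells at 0, 105 and 688 CPM, with counts in 19 of 29 and 30 of 37 cells. Sets A to D were at 213, 220.01, 219.6 and 458 CPM in control and at 68.4, 69.2, 219 and 209 CPM in RO-3306 cells. The group levels of 244 and 152 CPM gave a log2 ratio of -0.68, under 2-fold, although the median cell was higher in RO-3306. Lipa was the only tested member lower in all 4 sets, where 10.3% of all tested genes were, and its set C was level within rounding (-0.00). Without set C it met the rule for a lower gene, as did 11.5% of all tested genes. Per kb of mRNA, it was the most abundant member in control cells, at 82.2 CPM per kb against 51.1 in RO-3306. Plbd2, a phospholipase B-like protein, had a log2 ratio of -0.14, and Pla2g15 was below 5 CPM.

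Of the peptidases and other hydrolases, Tpp1, Scpep1 and Ggh were called higher, 3 of 5 tested. The 6 listed genes had a summed level of 202 CPM (control) and 532 CPM (RO-3306). Tpp1 (chromosome 7, 105394018 to 105401489) codes for tripeptidyl peptidase 1, which removes tripeptides from protein ends and is lost in a late infantile ceroid lipofuscinosis. It had counts in 8 of 29 control cells (0, 0 and 542 CPM) and 30 of 37 RO-3306 cells (0, 136 and 1475 CPM). Control sets A to D were at 44.8, 56.2, 41.7 and 18.5 CPM and RO-3306 sets at 171, 147, 279 and 195 CPM, with no overlap. The log2 ratio was 2.15, or 4.50-fold (4.33 to 4.68). Leaving out RO-3306 cell B4 turned set B to -0.24 and ended the call, while the ratio over all cells was then 2.01.

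Scpep1 (chromosome 11, 88814846 to 88846268) codes for a serine carboxypeptidase. Control cells were at 0, 50.02 and 210.0 CPM and RO-3306 cells at 0, 149.9 and 416 CPM, with counts in 18 of 29 and 35 of 37. In sets A to D the levels were 92.8, 69.3, 42.4 and 42.8 CPM in control and 185, 119, 213 and 179.9 CPM in RO-3306 cells, with no overlap. The log2 ratio of 1.29 was not ended by any single cell, but 38.3% of the span overlaps the antisense gene Scpep1os, whose reads cannot be told apart without strand. Per kb of mRNA, Scpep1 stood at 34.3 CPM per kb in control and 84.4 in RO-3306 cells, and Fuca1 at 38.9 and 79.3.

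Ggh (chromosome 4, 20041963 to 20066111), the gamma-glutamyl hydrolase that trims folate polyglutamates, had counts in 11 of 29 control cells (0, 0 and 423 CPM) and 29 of 37 RO-3306 cells (0, 54.7 and 344 CPM). Control sets A to D were at 45.7, 40.8, 0 and 46.1 CPM and RO-3306 sets at 81.2, 51.4, 92.4 and 94.4 CPM. The lowest RO-3306 set was above the highest control set. The log2 ratio of 1.06 fell below 1 without any of 9 single cells, to 0.94 at the lowest, and without set C or with the length correction Ggh was not called. Lgmn (legumain, an asparagine-specific peptidase) stood at 0.37 with set B below 0. Dnase2a, the acid DNase, had a log2 ratio of 1.01 from 4.10 to 9.28 CPM, with set A at -0.93 and counts in 3 of 29 and 7 of 37 cells; it was 2.32 without control B2 and 0.19 without RO-3306 B4. Acp2, an acid phosphatase, was below 5 CPM.

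Cell to cell, the members followed one another weakly. At equal depth, Spearman's rho of a member with the sum of the other members had a median of 0.26 in 25 control cells (-0.24 to 0.53) and 0.14 in 34 RO-3306 cells (-0.21 to 0.54). The same value over all tested genes had a median of 0.06 and -0.01. The cells of a group share their run and library preparation, and in counts this sparse such values are a description.

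Other lysosomal gene lists were set beside the members, with 7.23% of all tested genes called higher. These lists too were chosen with earlier results of these data known. Of 6 cathepsins tested 5 were called higher (Ctsb, Ctsd, Ctsl, Ctsz and Ctso), with a median of 1.56, as were 6 of 13 membrane proteins (0.80) and 7 of 15 vacuolar ATPase genes (0.96).

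The genes that tag and sort the enzymes and regulate their transcription were counted the same way. Of 9 tested genes of mannose 6-phosphate tagging and sorting 0 were called, with a median of 0.31 and a sum of 474 CPM (control) and 529 CPM (RO-3306). Among 6 tested regulators of lysosomal gene transcription 1 was called, the lysosomal calcium channel Mcoln1, at a log2 ratio of 2.01, and the list median was 0.14. Tfeb itself had 14.2 CPM in control and 13.03 CPM in the treated cells, and Tfe3 and Mitf were below 5 CPM. No gene of these 5 lists was called lower, and Scarb2 stands in 2 of them. The difference between the lists was not tested.

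**Figure D5:**
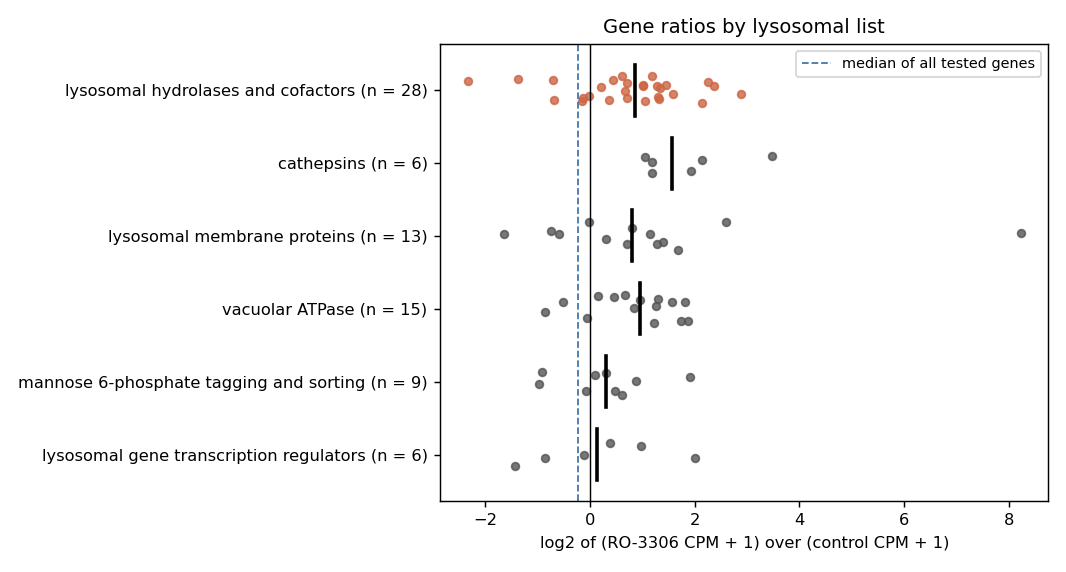
Log2 ratio between RO-3306 and control (x axis, levels in CPM, pseudocount of 1 CPM) for each tested gene of 6 lysosomal gene lists (y axis, with the number tested); bars are list medians and the dashed line is the median of all tested genes. The medians run from 0.14 for the regulators to 1.56 for the cathepsins, with the hydrolases and cofactors at 0.86.

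The promoters of the members were read for the E-box at the core of the CLEAR element, because TFEB and TFE3 are the known activators of this gene group. RefSeq windows on GRCm38.p6, from 250 bases before to 50 after the start, were found for 29 of the 34 genes, and Aga, Asah1, Galns, Ggh and Plbd2 had no entry. Both strands were searched for CACGTG, for TCACGTG, for TCACGTGA and for the full CLEAR palindrome, which is TCACGTGA with G before and C after it, each of which contains the one before it. CACGTG was in the windows of 7 of 29 members (24.1%) and of 8.09% of 27025 genes. In all 7 it was TCACGTG, which 4.29% of genes held. TCACGTGA was in 1 member (1.12% of genes) and the full palindrome in 0 (0.370% of genes). By call, 1 of 9 called members with a window held TCACGTG (Arsa), and 6 of the 20 other members did (Gaa, Gla, Glb1, Lgmn, Naglu and Sgsh). A match is a stretch of letters and not a measured binding site. The sequences given are those of Arsa, the called member, and 3 that were not called, Gla with the longest match, Glb1 and Naglu, 5′ to 3′ on the strand of the gene, with the motif in capitals. They lie at chr15:89477425-89477466 (minus strand), chrX:134601201-134601255 (minus), chr9:114401004-114401060 (plus) and chr11:101069995-101070051 (plus), all before the start.
Arsa: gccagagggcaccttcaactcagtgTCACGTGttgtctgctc
Gla: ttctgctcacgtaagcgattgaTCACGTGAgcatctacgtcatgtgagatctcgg
Glb1: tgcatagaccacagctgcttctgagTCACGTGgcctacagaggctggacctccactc
Naglu: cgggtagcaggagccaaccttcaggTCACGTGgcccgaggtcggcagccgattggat
In Arsa the log2 ratio was 2.37, in Gla 0.71, in Glb1 0.68 and in Naglu 0.44.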

How the data were processed

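Single-cell RNA libraries of untreated and RO-3306-treated C10 cells were analysed. The deposited values are expected counts per gene: per the file headers, the authors ran featureCounts 2.0.3 over whole gene spans, introns included, with a GRCm39 RefSeq annotation, a fractional count for multi-mapped reads and no strand option. FastQC and STAR stand in the submitters' processing notes, without versions. Reads carry no molecular identifiers: PCR copies are counted, and intervals cover counting error only.

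No 2 kept libraries held identical values (0 pairs), and no doublet caller was run on these sorted cells. Cells were grouped by the treatment label and summed; per-cell CPM, ratios, exact Poisson and conditional binomial intervals were computed with Python 3.11.15, numpy 2.4.6, pandas 2.3.3 and scipy 1.17.1. Counts were rounded for intervals, for thinning to 639000 reads and for the scaling factors of edgeR 4.0.16 and DESeq2 1.42.0 (R 4.3.3), which were used for nothing else. Gene lengths came from GENCODE M21 (longest protein-coding transcript) by symbol, promoter windows from RefSeq on GRCm38.p6, and gene positions from the files. The ratio calculation was tested on simulated data. Values per cell and per set are given for called members and for the 5 most abundant per kb, other members by range or ratio; other genes are named where a list's count turns on them. The members and lists were chosen with earlier results of these data known. Alternatives covered the pseudocount, cell weighting, scaling, filters, depth, length, multi-mapped reads, sets and single cells. A further list of hydrolases is not reported here.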

Additional observations from a re-analysis of the deposited data

Results flagged for a closer look

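The libraries under the minimum of 50000 counts and 1000 genes were outside the comparisons and still held counts for the member genes. Over 11 such RO-3306 libraries the members summed to 198.5 CPM (174 to 226), from 231 counts. Over 19 such control libraries they summed to 30.8 CPM (14.1 to 53.9), from 10.5 counts. One RO-3306 library, D5, held 134 of the 231 counts, and Psap 86, so most of the member counts come from that library. D5 also held 773537 of the 1162600 total counts of the left-out RO-3306 libraries. Mitochondrial genes gave 87.3% of the D5 counts, and D5 was left out for its 943 genes alone. These intervals cover counting error only.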

How the results depend on the processing

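The median log2 ratio and the summed ratio of the members, and the ratios of the 11 called members, kept their sign under every alternative run. Of the members not called, Gaa, Manba, Gusb, Naglu and Plbd2, all under 0.5 in size, changed sign under 1 or more: Gaa was 0.06, 0.09, 0.75 and 0.33 with TMM, DESeq2, without set B and length-corrected, Plbd2 0.07, 0.10 and 0.44 with TMM, DESeq2 and length-corrected, Manba -0.14 and -0.11 and Naglu -0.08 and -0.03 at equal depth and without set B, and Gusb up to 0.89 (without set B). The median log2 ratio of the members (0.86) was 1.02 with cells weighted equally, 1.19 with TMM and 1.21 with DESeq2 factors, 0.71 with no filter on low genes, 1.06 at a mean of at least 50 CPM, 1.05 at equal depth, 0.68 without set A and 1.01 without set B, and 0.73 to 1.02 with each cell left out in turn. The summed log2 ratio (0.85) was 0.92, 1.06 and 1.08 with equal weights, TMM and DESeq2. It was 0.83 with cells of at least 500000 counts and 3000 genes, and 0.90 at equal depth. Without sets A, B, C and D it was 0.71, 1.05, 0.80 and 0.83, and with each cell left out 0.79 to 0.98. Leaving out members with fractional counts in over 10% of their libraries gave 1.08, but only 2 tested members then remained. TMM and DESeq2 factors moved the median of all tested genes from -0.22 to -0.01 and 0.01, and the split of all calls to 9.40% higher and 4.81% lower, and 9.69% and 4.68%; all 11 called members were called under both.

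The number called higher was 0 when members with fractional counts in over 10% of their libraries were left out, since 2 tested members remained. Otherwise it was 8 to 13. The number called lower was 1 without set A (Arsb), 1 without set C (Lipa), and 0 with any single cell left out. With a set left out, fewer signs are required for a call. The share of all tested genes called higher was then 10.8%, 11.3%, 9.11% and 9.34% without A, B, C and D. The share called lower was 9.80% without A and 11.5% without C. The values of called members were recomputed 154 times: 109 moved beyond the counting interval, 10 fell below a log2 ratio of 1 and 0 changed sign. No paired analysis was possible because the sets and cell numbers mark no shared culture and no test was run.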
